A study of Mus musculus with 17 samples.

Results

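The genes described here are 10 conserved targets of the hypoxia-inducible factors (HIFs) that lie outside glycolysis, namely Ankrd37, Ndrg1, P4ha1, P4ha2, Kdm3a, Adm, Ddit4, Ccng2, Bhlhe40 and Mxi1. They were chosen by name, as 10 of the 35971 genes to which the deposited transcripts were summed, and all 10 passed the filter on low counts that left 17011 genes for testing. RNA of whole kidneys from 17 mice was sequenced to ask what the loss of Hif1α or Hif2α changes in kidneys that express PRCC-TFE3, a fusion oncoprotein of translocation renal cell carcinoma. All 17 mice carried a knock-in (KI) allele in which PRCC-TFE3 is silent until Cre recombinase removes a stop cassette, and the study describes the KI kidneys at 8 months of age. The 4 Cre(-) mice had no Cre, and of these replicates 1 and 2 carried HIF1a flox alleles whereas replicates 3 and 4 carried no flox allele. The other groups carried KSP-Cre, which the Cadherin 16 promoter drives in renal epithelium. These were 3 PRCC-TFE3 KI mice without flox alleles, 4 PRCC-TFE3 KI/Hif1α KO mice with HIF1a flox alleles, 3 PRCC-TFE3 KI/Hif2α KO mice with HIF2a flox alleles and 3 double knockout (DKO) mice with both. Deletion could take place only in Cre-expressing cells and their descendants, so stroma, vessels and leukocytes kept both Hif genes.

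HIFs are dimers of an oxygen-regulated α subunit and a constitutive β subunit. When oxygen is sufficient, prolyl hydroxylases mark the α subunit for destruction by the Vhl ubiquitin ligase, and when oxygen is low the dimer binds short hypoxia response elements with an RCGTG core near its targets. HIF1α and HIF2α share this core but activate overlapping, not identical, sets of genes, and outside glycolysis these include secreted peptides, collagen-modifying enzymes, chromatin enzymes, transcriptional repressors and inhibitors of growth signalling.

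The letters of such cores near the members are shown because the core is the feature by which HIF targets are recognised. RefSeq promoter windows (GRCm38.p6, 250 bases before to 50 bases after a transcription start) were held for 8 of the 10 members, in 12 windows of 32851 in all. Ndrg1 and Bhlhe40 had no entry. The stretches printed run 5′ to 3′ on the strand of the gene, lie before a RefSeq transcription start and overlap no annotated exon, and capitals mark ACGTG or GCGTG on either strand, so that CACGT and CACGC are cores read on the opposite strand. They lie at chr7:110627407-110627656 (plus strand) for Adm, chr8:45999868-46000100 (minus strand) for Ankrd37, chr10:59323046-59323295 (plus strand) for P4ha1, chr10:59951835-59952020 (minus strand) for Ddit4 and chr11:54100674-54100923 (plus strand) for P4ha2. Those of Ankrd37 and P4ha2 fall inside the annotated span of the gene, which has a further 5′ end upstream. These are the 5 members with at least 2 cores in a window.
Ankrd37: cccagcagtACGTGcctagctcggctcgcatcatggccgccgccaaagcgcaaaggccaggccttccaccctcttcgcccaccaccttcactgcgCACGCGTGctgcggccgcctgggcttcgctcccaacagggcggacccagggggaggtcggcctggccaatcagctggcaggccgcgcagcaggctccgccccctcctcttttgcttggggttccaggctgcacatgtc
P4ha1: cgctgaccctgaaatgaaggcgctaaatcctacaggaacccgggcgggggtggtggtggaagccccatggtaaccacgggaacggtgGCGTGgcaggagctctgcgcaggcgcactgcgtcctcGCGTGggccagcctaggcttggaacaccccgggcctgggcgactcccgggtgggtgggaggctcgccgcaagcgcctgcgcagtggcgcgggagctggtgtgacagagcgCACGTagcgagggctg
P4ha2: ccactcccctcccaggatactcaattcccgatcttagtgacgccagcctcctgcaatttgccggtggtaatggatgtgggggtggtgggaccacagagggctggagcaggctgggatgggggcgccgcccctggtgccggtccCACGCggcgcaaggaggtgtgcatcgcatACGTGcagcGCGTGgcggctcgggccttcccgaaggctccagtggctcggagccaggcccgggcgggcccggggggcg
Ddit4: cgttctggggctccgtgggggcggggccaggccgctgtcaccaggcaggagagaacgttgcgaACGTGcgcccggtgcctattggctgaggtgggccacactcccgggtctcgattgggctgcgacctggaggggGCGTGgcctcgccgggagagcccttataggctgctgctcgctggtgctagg
Adm: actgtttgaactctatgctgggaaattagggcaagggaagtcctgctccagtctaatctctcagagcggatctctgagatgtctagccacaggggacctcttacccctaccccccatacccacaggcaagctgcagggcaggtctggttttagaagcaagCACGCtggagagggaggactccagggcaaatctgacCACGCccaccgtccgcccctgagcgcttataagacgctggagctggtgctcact
A core of either form was found in a window of 8 of the 8 members, compared with 46.7% of all genes with a window, and in 9 of their 12 windows, compared with 43.8% of all windows. ACGTG was found in 6 of the 12 windows, compared with 19.6% of all windows. In the capitals of Ankrd37, CACGCGTG is a pair of GCGTG cores that overlap on opposite strands. The Ankrd37 and P4ha2 windows hold 4 cores each, of which 1 each lies outside the stretch printed, and 8.93% of all windows hold at least 3. The palindrome CACGTG, which contains ACGTG on both strands and is bound by the TFE3 family among others, was in none of the 12 windows and in 7.15% of all windows. The M-box forms of the TFE3 family (TCACGTGA, TCATGTGA, TCACATGA and TCATATGA, read on both strands, of which TCACGTGA contains CACGTG) were in 0 of the 12 windows and in 2.26% of all windows. A match says nothing about binding, and a missing match covers only these windows.

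The libraries held between 16504419 and 24668827 counts each, and the limit that a count of 0 allows, 3 counts, corresponds to 0.122 to 0.182 CPM (TMM-scaled counts relative to library size), for counting error only. Gpnmb, a target of TFE3 that reports the fusion, had 0.993 to 2.14 CPM in Cre(-) kidneys and 13009 to 15629 CPM in KI kidneys. It had 3269 to 7452 CPM in KI/Hif1α KO, 4953 to 11387 CPM in KI/Hif2α KO and 2806 to 6415 CPM in DKO kidneys, so all knockout libraries lay below all KI libraries. Summed over 7 proximal tubule markers, CPM were 10571 to 12338 in Cre(-), 681.9 to 795.7 in KI, 853.1 to 2205 in KI/Hif1α KO, 643.6 to 1951 in KI/Hif2α KO and 1240 to 1804 in DKO kidneys. Over 6 macrophage and leukocyte markers the sums were 118.8 to 131.6, 1246 to 1264, 651.7 to 862.3, 848.5 to 937.8 and 531.0 to 772.9 CPM in the same order, and over 5 fibroblast markers they were 162.2 to 224.9, 355.5 to 475.2, 580.0 to 743.5, 710.9 to 818.6 and 724.7 to 1041 CPM. The leukocyte sums do not describe each marker. Relative to KI, the median log2 fold change of these 6 markers was 0.43 in KI/Hif1α KO, 0.62 in KI/Hif2α KO and 0.73 in DKO kidneys. In KI/Hif1α KO and DKO kidneys 1 marker passed as lower, Cd68, and 1 as higher, Adgre1, and in KI/Hif2α KO kidneys 0 passed. No marker of these lists was at 0. In whole kidneys, fewer cells of a type cannot be told apart from less RNA per cell, and what these shifts contribute to the values of the members was not tested. Hif1a had 184.0 to 231.6 CPM in KI and 162.6 to 198.4 CPM in KI/Hif1α KO kidneys, and Epas1 173.2 to 191.7 CPM in KI and 136.5 to 149.3 CPM in KI/Hif2α KO kidneys, over all exons of the genes. Library numbers ran largely by group, and order and group cannot be told apart.

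KI replicate 3 stood apart for these genes. It was the highest KI library for 10 of the 10 members, compared with 37.4% of all genes tested, and the highest of all 17 libraries for 8 of the 10, compared with 12.2% of all genes. KI replicate 2 carried the most adipocyte RNA, with 127.5 CPM of Adipoq compared with at most 23.5 CPM in the other 16 libraries, and was the highest KI library for 0 of the 10. The labels give no ground to leave out either library. The main counts and values relative to KI are therefore also given without KI replicate 3.

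**Figure D1:**
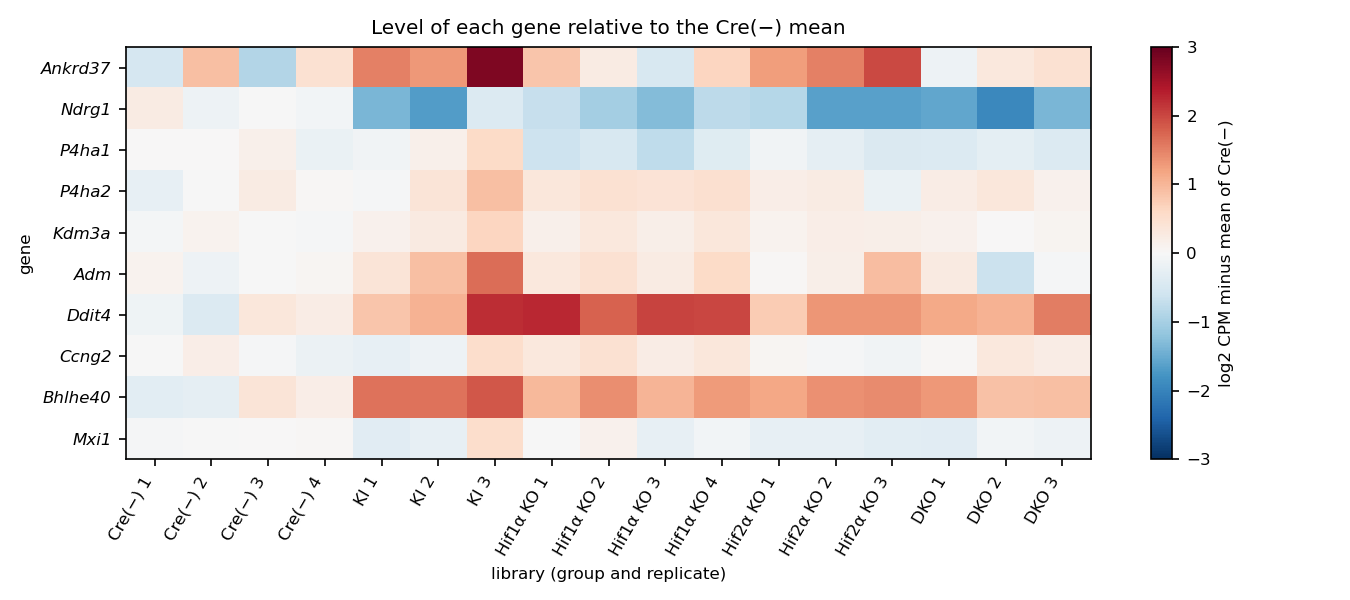
Level of the 10 genes in each of the 17 libraries, as log2 CPM minus the mean of the 4 Cre(-) libraries, with genes in rows and libraries in columns by group. KI replicate 3 is the highest KI library in all 10 rows, Bhlhe40 and Ddit4 are above the Cre(-) mean in all Cre-carrying libraries, and Ndrg1 is below it in all of them.

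Per unit of transcript length, Ndrg1 was by far the most abundant member in Cre(-) kidneys, with 1016 ± 104 (SD, n = 4) in TPM, the deposited abundance scaled for length and library,, followed by Bhlhe40 with 79.3 ± 23.4 TPM. P4ha1 and Mxi1 followed with 35.8 ± 4.22 and 35.3 ± 2.22 TPM and did not differ beyond their spread. P4ha2 and Kdm3a, with 18.5 ± 3.28 and 16.5 ± 1.98 TPM, and Ccng2 and Ddit4, with 12.1 ± 1.74 and 10.6 ± 2.29 TPM, were pairs of neighbours whose ranges overlapped. Adm (7.01 ± 0.42 TPM) and Ankrd37 (2.15 ± 1.60 TPM) were the lowest. In KI kidneys the order began with Ndrg1 (667.5 ± 286 TPM, n = 3), Bhlhe40 (341.4 ± 17.4 TPM) and P4ha1 (60.4 ± 11.7 TPM) and again ended with Ankrd37 (10.6 ± 6.02 TPM). The mean of Ddit4, below P4ha2, Kdm3a and Ccng2 in Cre(-) kidneys, was above all of them in KI kidneys at 39.9 ± 19.8 TPM. Its SD reached its neighbours Mxi1 (48.8 ± 14.0 TPM) and P4ha2 (34.8 ± 10.3 TPM). Among KI replicates 1, 2 and 3 Ddit4 had 26.6, 30.5 and 62.7 TPM, and P4ha2 had 24.5, 34.6 and 45.1 TPM. The order of Ddit4 and P4ha2 was thus reversed in KI replicate 2, and KI replicate 3 weighed most in the mean of Ddit4. On the log2(TPM + 0.1) scale the median gene was 0.48 higher in KI than in Cre(-) kidneys. On the TMM-scaled log2 scale used for the tests it was 0.03 higher. TPM are therefore compared here only between genes of a group.

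Between KI and Cre(-) kidneys the share of members called was near that of all genes. Of the 10, 7 passed the test, where 60.9% of all genes did so, with 6 higher (31.6% of all genes) and 1 lower (29.3% of all genes). Ankrd37, Bhlhe40, Ddit4, Adm, P4ha2 and Kdm3a rose and Ndrg1 fell, whereas P4ha1, Ccng2 and Mxi1 did not pass. The median log2 fold change of the 10 was 0.41, and that of all genes 0.03. With KI replicate 3 left out, the median of the 10 was 0.20 and 7 values were above 0. The calls again numbered 7 (57% of all genes), 5 higher and 2 lower, since P4ha2 was lost at 0.19 (adjusted p = 0.279) and Mxi1 became lower at -0.29 (adjusted p = 0.0167). In 5 members all KI libraries lay above all Cre(-) libraries, as in 28.9% of all genes, and in 1 they lay below, as in 27.7%.

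Ankrd37 and P4ha1 were lower after loss of Hif1α. These were the 2 members that passed the test between KI/Hif1α KO and KI kidneys, where 5.44% of all genes passed and 2.86% were lower. In 3 members, Ankrd37, P4ha1 and Bhlhe40, all KI/Hif1α KO libraries lay below all KI libraries, as in 10.3% of all genes, and in 0 they lay above, as in 8.96%. The 10 log2 fold changes ranged from -1.64 to 0.54 with a median of -0.10, and 3 were above 0. In the fit that left out KI replicate 3, they ranged from -1.01 to 1.09 with a median of 0.14, and 6 were above 0. In that fit 7 members reached an unadjusted p under 0.05, in both directions, compared with 19.2% of all genes. No member passed between KI/Hif2α KO and KI kidneys, where 1.39% of all genes passed, although all 10 values were below 0, from -0.65 to -0.12 with a median of -0.35 (Ccng2 was at 0.03 on the log2(TPM + 1) scale). Without KI replicate 3 that direction was not shared, with Ankrd37, Ndrg1, Ddit4, Ccng2 and Mxi1 above 0, a range of -0.31 to 0.22 and a median of -0.01. With all libraries an unadjusted p under 0.05 was reached by 3 members, compared with 19.2% of all genes (1 member and 12.4% of all genes without KI replicate 3), and DESeq2 called 1 of them, P4ha1 (adjusted p = 0.0338). P4ha1 and Bhlhe40 were the 2 members whose KI/Hif2α KO libraries all lay below KI (10.7% of all genes), and 0 lay above (9.52%). After loss of both factors 4 members were lower than in KI, namely Ankrd37, Adm, Bhlhe40 and P4ha1, where 12.7% of all genes passed and 6.19% were lower. For 5 members, these and Kdm3a, all DKO libraries lay below all KI libraries, as in 17.2% of all genes, and for 0 above, as in 16.5%.

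These counts rested on few libraries. With KI replicate 3 left out, 0 members passed between DKO and KI kidneys (5.29% of all genes), and 3 passed between KI/Hif1α KO and KI kidneys (2.97% of all genes), with P4ha1 lower and Ddit4 and Ccng2 higher, while the count between KI/Hif2α KO and KI kidneys stayed at 0. The median of the 10 values between DKO and KI kidneys was -0.42 with all libraries and -0.10 without KI replicate 3, with 1 and 4 members above 0. The count between DKO and KI was also 0 without DKO replicate 3 and 1 without DKO replicate 2. The call of Ankrd37 in KI/Hif1α KO kidneys was lost without any of the 4 KI/Hif1α KO replicates or without DKO replicate 2, whereas P4ha1 remained called there with each of the 17 libraries left out in turn. In a fit of the compared groups alone, neither passed (P4ha1 at an adjusted p of 0.0565, Ankrd37 at 0.0969) and the count between DKO and KI was 1. All these comparisons share the same KI libraries, so their agreement in direction is not independent.

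**Figure D2:**
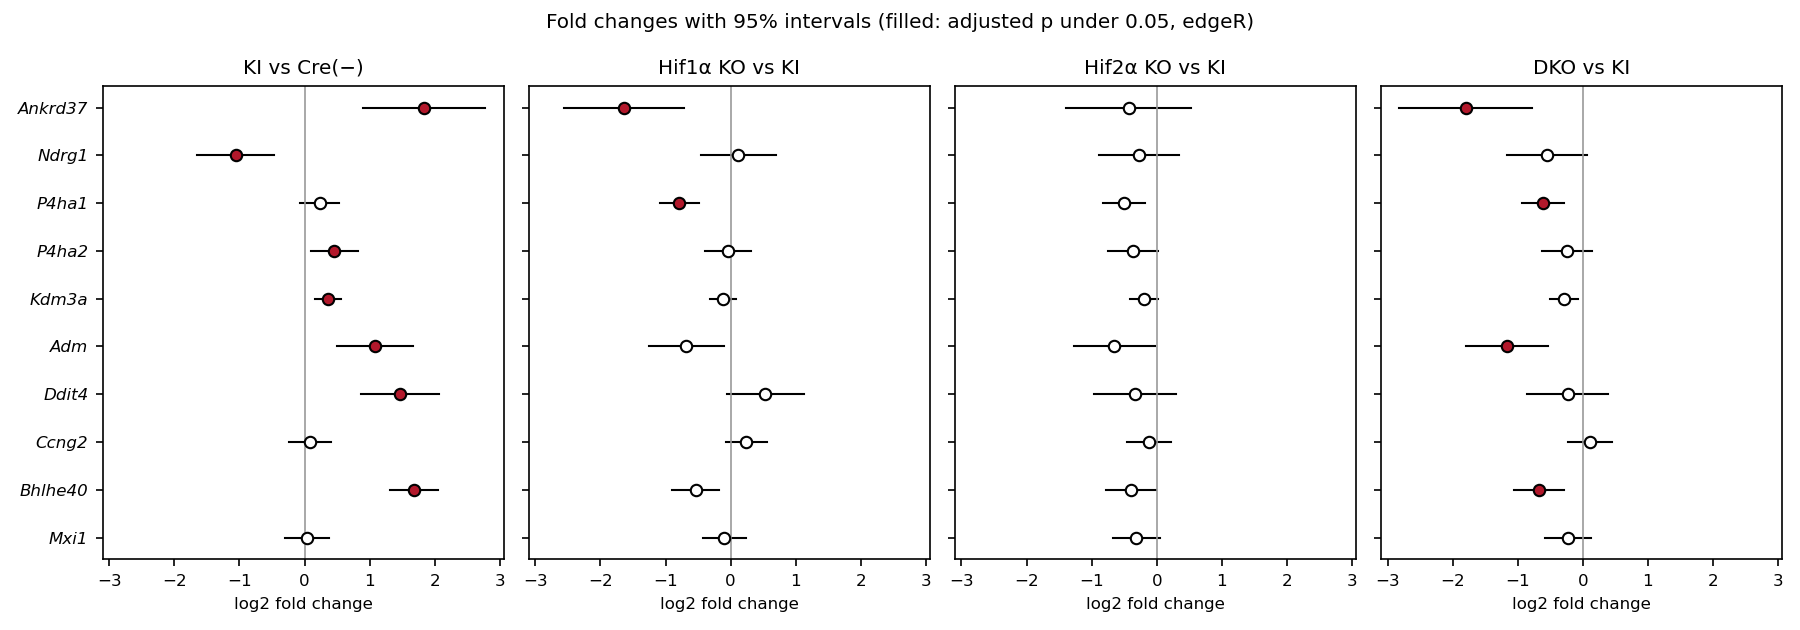
Log2 fold change of the 10 genes with 95% intervals in 4 comparisons from the edgeR fit, where filled points have an adjusted p under 0.05. Ankrd37 and P4ha1 are lower than KI in KI/Hif1α KO and DKO kidneys, and all 10 points of the KI/Hif2α KO comparison are open and, with all libraries, below 0.

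The design also allows each factor to be tested over both backgrounds of the other. The mean effect of Hif1α loss, with Hif2α intact and lost, passed for the same 2 members, Ankrd37 at -1.50 ± 0.32 (SE, adjusted p = 0.0199) and P4ha1 at -0.45 ± 0.10 (adjusted p = 0.025), where 4.36% of all genes passed and 2.67% were lower. The mean effect of Hif2α loss passed for 0 members in edgeR, where 7.16% of all genes passed, with 5 members at an unadjusted p under 0.05 (25.6% of all genes), 0 calls in DESeq2 and all 10 values below 0 (except Ccng2 at 0.02 on the log2(TPM + 1) scale), led by Adm at -0.57 (adjusted p = 0.097) and Ddit4 at -0.55 (adjusted p = 0.105). In the fit that left out KI replicate 3, 0 members had an unadjusted p under 0.05 for the Hif2α effect (20% of all genes), Ankrd37 and Ccng2 were both at 0.02, and Adm was at -0.36 and Ddit4 at -0.27. For the Hif1α effect that fit had 7 members at an unadjusted p under 0.05, in both directions (21.2% of all genes). The Hif1α effect numbered 0 members without DKO replicate 2 or DKO replicate 3, 1 without KI/Hif1α KO replicate 3 or KI/Hif2α KO replicate 2 or 3, 4 without KI replicate 3 (2 higher, Ddit4 and Ccng2, and 2 lower) and 4 in DESeq2, all lower. The Hif2α effect numbered 4 members without KI replicate 1 and 1 without KI/Hif2α KO replicate 3. Whether the effect of losing both differs from the sum of the single losses passed for 0 members and 0 of all genes in edgeR, and for 0 members in DESeq2. With all libraries P4ha1 had the largest such deviation of the 10, 0.68 ± 0.20 (unadjusted p = 0.00443, adjusted p = 0.639), and was the 1 member with an unadjusted p under 0.05, compared with 5.95% of all genes. Without KI replicate 3 the deviations of Ddit4 (-0.99, unadjusted p = 0.00404) and Ndrg1 (-0.87, unadjusted p = 0.0164) were larger in size than that of P4ha1 (0.47, unadjusted p = 0.0145), and these were the 3 members with an unadjusted p under 0.05, compared with 6.01% of all genes.

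**Figure D3:**
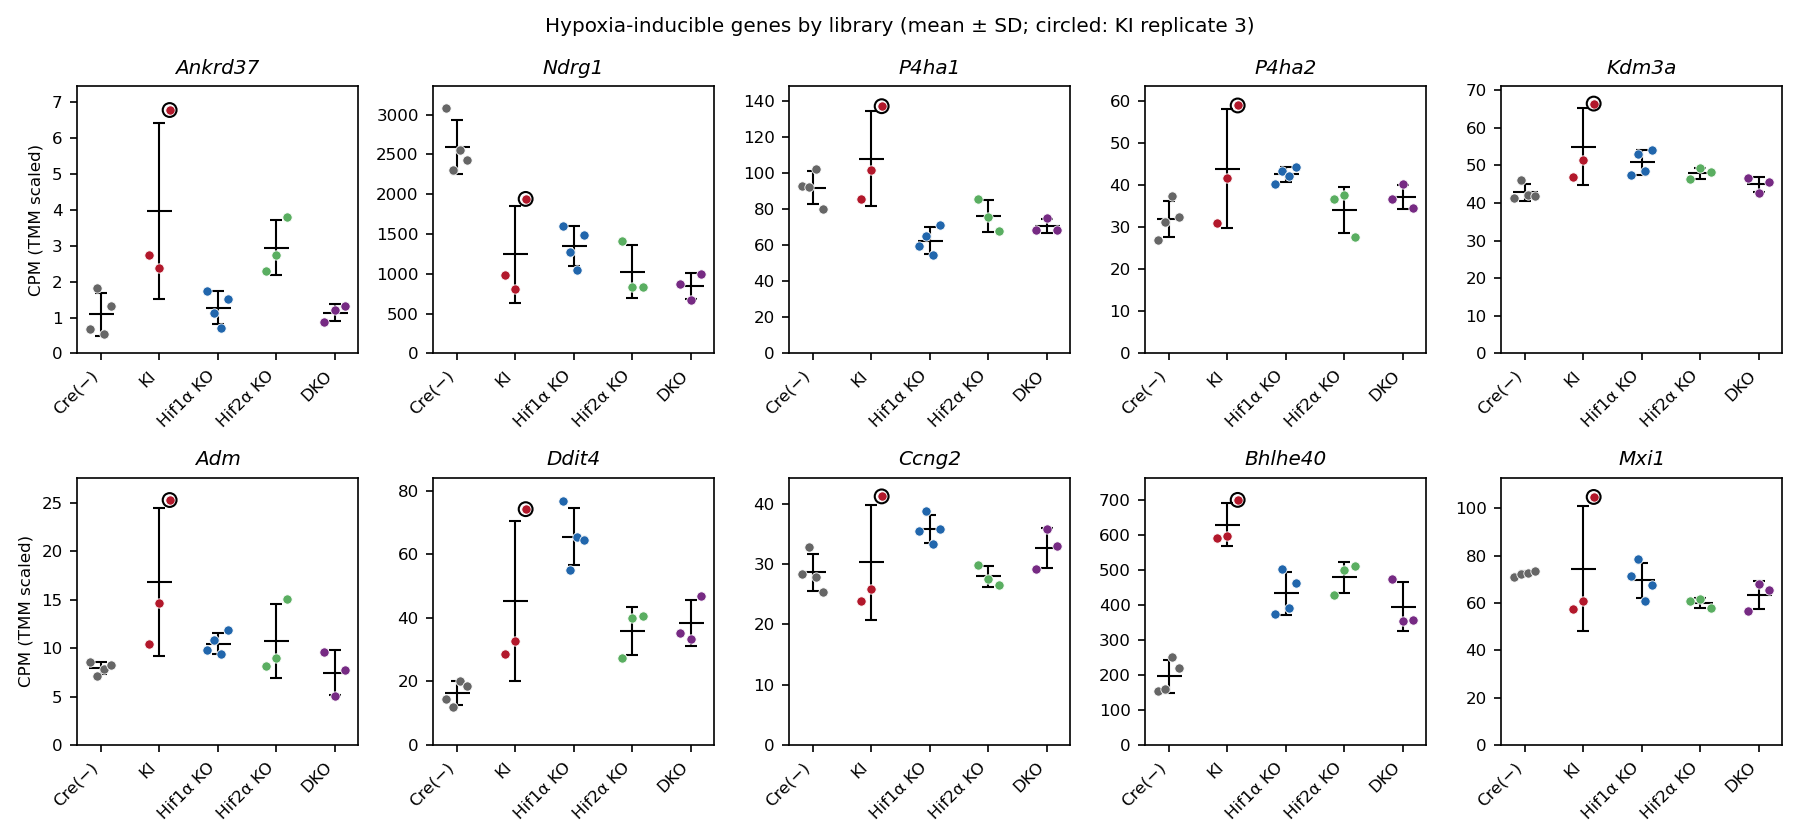
CPM of each of the 10 genes in each library by group, on linear axes from 0, with points for libraries, bars for the group mean ± SD and a ring around KI replicate 3. The KI/Hif1α KO libraries of P4ha1 lie below all Cre(-) and KI libraries, and the Ankrd37 libraries of KI/Hif1α KO and DKO kidneys lie at the level of Cre(-).

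Ankrd37 (chr8:45996902-46005707, minus strand) encodes an ankyrin repeat protein that is a direct HIF target. It had 0.686, 1.82, 0.530 and 1.33 CPM among Cre(-) kidneys and 2.76, 2.37 and 6.79 CPM among KI kidneys. All KI libraries were above all Cre(-) libraries, and the log2 fold change was 1.84 ± 0.44 (adjusted p = 0.00197), or 1.21 ± 0.42 (adjusted p = 0.0243) without KI replicate 3. It had 1.73, 1.14, 0.697 and 1.52 CPM among KI/Hif1α KO kidneys, 2.29, 2.76 and 3.80 CPM among KI/Hif2α KO kidneys and 0.877, 1.21 and 1.32 CPM among DKO kidneys. The KI/Hif1α KO and DKO libraries lay below all KI libraries and within the Cre(-) range, and the KI/Hif2α KO libraries overlapped KI. The difference from KI was -1.64 ± 0.43 (adjusted p = 0.0394) in KI/Hif1α KO, -1.80 ± 0.48 (adjusted p = 0.0245) in DKO and -0.43 ± 0.45 (adjusted p = 0.641, 95% interval -1.39 to 0.53) in KI/Hif2α KO kidneys. With KI replicate 3 left out, the values for KI/Hif1α KO and DKO were -1.01 (adjusted p = 0.203) and -1.17 (adjusted p = 0.139), and that for KI/Hif2α KO was 0.20 (adjusted p = 0.901). KI/Hif1α KO lay below KI/Hif2α KO in all libraries, by -1.21 ± 0.43, which did not pass over all genes (unadjusted p = 0.0136, adjusted p = 0.197). DKO and Cre(-) differed by 0.04 with an interval of -0.95 to 1.03. Only 8 to 119 counts per library stand behind these values, and the gene overlaps Lrp2bp and Ufsp2 on the opposite strand, with which reads cannot be told apart because the strand setting of the counting is not stated. The values sum all annotated transcripts. In KI kidneys Ankrd37-204 and Ankrd37-202, annotated as retained introns, held 51.4% and 13.3% of Ankrd37 TPM on average. The protein-coding Ankrd37-201 held 22.6%, from 0% to 34.4% among libraries.

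P4ha1 (chr10:59323296-59373304, plus strand) and P4ha2 (chr11:54100095-54131665, plus strand) encode the catalytic subunits of collagen prolyl 4-hydroxylase, which stabilises the collagen triple helix. P4ha1 had 93.0, 92.7, 102.5 and 80.2 CPM in Cre(-) kidneys and 85.8, 101.7 and 137.3 CPM in KI kidneys. The groups overlapped, with a difference of 0.23 ± 0.14 (adjusted p = 0.159), or 0.03 without KI replicate 3. It had 59.6, 65.3, 54.4 and 71.5 CPM in KI/Hif1α KO, 85.5, 75.9 and 67.9 CPM in KI/Hif2α KO and 68.6, 75.5 and 68.7 CPM in DKO kidneys. All 10 knockout libraries lay below all 3 KI libraries, by a narrow margin in KI/Hif2α KO, and the DKO libraries were also below all Cre(-) libraries. P4ha1 was lower than in KI by -0.79 ± 0.14 (adjusted p = 0.00851) in KI/Hif1α KO and by -0.61 ± 0.15 (adjusted p = 0.0172) in DKO kidneys, and differed by -0.50 ± 0.15 (adjusted p = 0.0932) in KI/Hif2α KO kidneys. In the fit that left out KI replicate 3, the first was -0.58 (adjusted p = 0.0285) and the DKO difference -0.40 (adjusted p = 0.0851). DKO kidneys were below Cre(-) kidneys by -0.38 ± 0.14 (adjusted p = 0.031), a call that was lost without any of 5 libraries (Cre(-) replicates 1, 2 and 3 and DKO replicates 1 and 3) and a sign that turned to 0.22 on the log2(TPM + 1) scale.

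P4ha2 followed a different course. It had 26.9, 31.2, 37.4 and 32.3 CPM in Cre(-) and 31.0, 41.7 and 58.8 CPM in KI kidneys, which overlapped. The difference of 0.46 ± 0.17 passed (adjusted p = 0.0275), but the call was lost without KI replicate 3, Cre(-) replicate 1 or Cre(-) replicate 2 and against the controls without flox alleles alone (0.34, adjusted p = 0.183). It had 40.3, 43.4, 42.1 and 44.3 CPM in KI/Hif1α KO, 36.6, 37.6 and 27.6 CPM in KI/Hif2α KO and 36.7, 40.1 and 34.5 CPM in DKO kidneys. KI/Hif1α KO lay within the KI range, at -0.04 ± 0.17 (adjusted p = 0.907, 95% interval -0.40 to 0.31) and 0.23 without KI replicate 3 (adjusted p = 0.436), and above all KI/Hif2α KO libraries, a difference of 0.32 ± 0.17 that did not pass (adjusted p = 0.384). Their partner P4hb, the shared β subunit, differed by -0.20 (adjusted p = 0.0593) between KI and Cre(-) kidneys and by -0.33 (adjusted p = 0.0011) without KI replicate 3, and P4ha3 by -1.07 (adjusted p = 0.0731).

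P4ha1 also changed in its annotated transcripts. Of 22 transcripts of the 10 genes with at least 10% of their gene's TPM, each tested in 3 comparisons, only P4ha1-201 passed, as a share of P4ha1 TPM in the 13 Cre-carrying compared with the 4 Cre(-) kidneys. Its share was 17.3%, 15.9%, 17.5% and 18.2% in Cre(-) kidneys and 10.6%, 10.3% and 9.71% in KI kidneys. It was 12.9%, 13.2%, 11.6% and 12.9% in KI/Hif1α KO, 14.1%, 12.6% and 13.8% in KI/Hif2α KO and 13.7%, 15.1% and 12.0% in DKO kidneys. All Cre-carrying libraries lay below all Cre(-) libraries, and the 3 KI libraries lay below all others. The mean share was 12.5% compared with 17.2%, a difference of -4.72 percentage points (two-sided exact permutation p = 0.00042, the smallest that 2380 arrangements allow, adjusted p = 0.0277 over 66 tests). With any Cre(-) library left out, the arrangements that remain cannot reach the threshold. In TPM, P4ha1-201 stood at 6.13 ± 0.60 in Cre(-) and 6.13 ± 0.92 in KI kidneys, while P4ha1-202 stood at 14.0 ± 1.70 and 30.3 ± 7.20. These TPM include the shift of the whole TPM scale between the groups, so they do not show that either transcript was unchanged or rose. On the TMM scale P4ha1 as a whole differed by 0.23 (adjusted p = 0.159, edgeR). P4ha1-201 has the exon at chr10:59354340-59354410 where P4ha1-202 and P4ha1-203 have the exon of the same length, 71 bases, at chr10:59355350-59355420, and its last exon runs to 59373304 rather than to 59371956 or 59372251. These shares are estimates from 75-nt reads, and which of these stretches carries the difference was not tested. In expected counts P4ha1-201 passed again (adjusted p = 0.0139) and Ccng2-203, annotated as a retained intron, passed with it, which in TPM had 17.7% of Ccng2 in Cre-carrying and 12.1% in Cre(-) kidneys (exact permutation p = 0.00252, adjusted p = 0.0832).

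**Figure D4:**
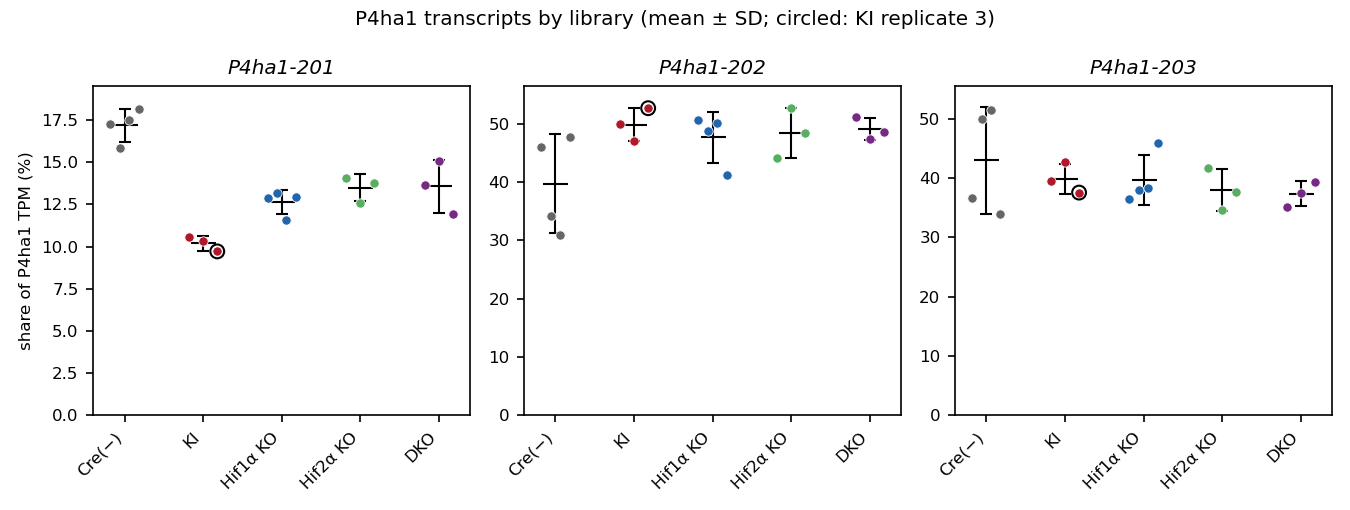
Share of P4ha1 TPM, in percent, assigned to the 3 annotated P4ha1 transcripts in each library by group, with points for libraries and bars for the mean. P4ha1-201 lies between 15.9% and 18.2% in Cre(-) and between 9.71% and 10.6% in KI kidneys, with the knockout libraries between, while the ranges of P4ha1-203 overlap between Cre(-) and the other groups.

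Adm (chr7:110627661-110629820, plus strand) encodes the vasodilator peptide adrenomedullin. Its level was 8.57, 7.12, 7.81 and 8.27 CPM in Cre(-) and 10.4, 14.7 and 25.3 CPM in KI kidneys. All KI libraries were above all Cre(-) libraries, with wide spread among them, and Adm rose by 1.08 ± 0.28 on the log2 scale (adjusted p = 0.00314), or by 0.66 ± 0.25 (adjusted p = 0.0368) without KI replicate 3. It had 9.80, 10.8, 9.36 and 11.9 CPM in KI/Hif1α KO, 8.12, 8.97 and 15.1 CPM in KI/Hif2α KO and 9.60, 5.06 and 7.76 CPM in DKO kidneys. The DKO libraries lay below all KI libraries and overlapped Cre(-), whereas both single knockouts overlapped KI. Adm was lower than in KI by -1.17 ± 0.30 in DKO kidneys (adjusted p = 0.0211, and 0.116 at -0.75 without KI replicate 3). It differed from KI by -0.68 ± 0.27 (adjusted p = 0.154) in KI/Hif1α KO and by -0.65 ± 0.29 (adjusted p = 0.243) in KI/Hif2α KO kidneys, values that differed from each other by -0.03 with an interval of -0.62 to 0.55. Without KI replicate 3 these differences from KI were -0.26 (adjusted p = 0.63) and -0.23 (adjusted p = 0.78). DKO and Cre(-) kidneys differed by -0.09 with an interval of -0.69 to 0.52, and by 0.31 on the log2(TPM + 1) scale.

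The receptor of adrenomedullin is Calcrl joined to an accessory protein of the Ramp family. Ramp3 had 7.20, 7.12, 10.1 and 11.6 CPM in Cre(-) kidneys and 529.3, 504.7 and 708.5 CPM in KI kidneys. Its rise of 6.01 ± 0.23 on the log2 scale (adjusted p = 4.72e-11) came with smaller rises of Ramp1 (2.77) and Ramp2 (0.66) and a fall of Calcrl (-0.54, adjusted p = 0.0106). Ramp3 was lower than in KI in each knockout group, by -1.22 (adjusted p = 0.00454) in KI/Hif1α KO, -1.12 (adjusted p = 0.0213) in KI/Hif2α KO and -1.48 (adjusted p = 0.00166) in DKO kidneys, with 183.8 to 317.0 CPM in the 10 knockout libraries. With KI replicate 3 left out, these were -1.05 (adjusted p = 0.0191), -0.96 (adjusted p = 0.121, no longer called) and -1.31 (adjusted p = 0.00831). These levels remained far above Cre(-), unlike those of Adm in DKO kidneys. The related peptide Adm2 fell between Cre(-) and KI kidneys by 2.92 on the log2 scale (adjusted p = 0.000104).

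Bhlhe40 (chr6:108660629-108666925, plus strand) encodes a basic helix-loop-helix repressor that acts in the circadian clock and in responses to hypoxia. Cre(-) kidneys held 154.1, 158.7, 252.5 and 219.0 CPM, and KI kidneys held 590.8, 595.3 and 699.7 CPM. No libraries of the groups overlapped and the KI libraries were close together, and the rise of 1.68 ± 0.17 (adjusted p = 6.03e-07) had the smallest adjusted p of the 10 members, at 1.60 ± 0.19 without KI replicate 3. Cre(-) replicates 1 and 2, with HIF1a flox alleles, were the lowest controls, and the value was 2.01 against these and 1.42 against the controls without flox alleles. It had 373.3, 503.8, 391.6 and 462.6 CPM in KI/Hif1α KO, 426.9, 498.4 and 510.0 CPM in KI/Hif2α KO and 474.7, 352.8 and 357.6 CPM in DKO kidneys. All 10 knockout libraries lay between the Cre(-) and KI libraries, overlapping neither. Bhlhe40 was lower than in KI by -0.67 ± 0.18 in DKO kidneys (adjusted p = 0.0273, and 0.104 at -0.59 without KI replicate 3). It differed from KI by -0.54 ± 0.17 (adjusted p = 0.0764, and 0.0237 in DESeq2) in KI/Hif1α KO and by -0.39 ± 0.18 (adjusted p = 0.254) in KI/Hif2α KO kidneys. DKO kidneys remained above Cre(-) by 1.01 ± 0.17. The gene overlaps an antisense transcript, 0610040F04Rik, whose reads cannot be told apart without a stated strand setting.

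Its paralog Bhlhe41, a repressor of the same family, rose by 4.13 between Cre(-) and KI kidneys and was lower than in KI by -0.96 (adjusted p = 0.0319) in KI/Hif1α KO and by -1.13 (adjusted p = 0.0133) in DKO kidneys. In the fit that left out KI replicate 3, the values of Bhlhe41 were -0.96 (adjusted p = 0.0709, no longer called) and -1.13 (adjusted p = 0.0404). Over the 17 libraries genes whose log2 CPM were most like those of Bhlhe40 included the stress factors Ddit3 (Pearson r = 0.987) and Atf3 (r = 0.980), a description among 14712 genes in which the libraries share groups and scaling. Ddit3 had 110.4 to 149.8 CPM in KI, 57.6 to 81.0 CPM in KI/Hif1α KO, 66.2 to 89.6 CPM in KI/Hif2α KO, 50.8 to 71.6 CPM in DKO and 15.3 to 22.3 CPM in Cre(-) kidneys. Ddit3 was lower than in KI by -0.89 (adjusted p = 0.0106) in KI/Hif1α KO kidneys and by -1.06 (adjusted p = 0.00342) in DKO kidneys, where Atf3 was lower by -1.58 (adjusted p = 0.00376). These calls held without KI replicate 3, at -0.74 (adjusted p = 0.0409) and -0.91 (adjusted p = 0.0178) for Ddit3 and -1.32 (adjusted p = 0.0188) for Atf3. Atf3 was also called lower than in KI in KI/Hif1α KO kidneys, and that call was lost without KI replicate 3.

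Mxi1 (chr19:53310518-53375810, plus strand), a repressor that antagonises Myc by pairing with Max, had 71.0, 72.3, 72.6 and 73.6 CPM in Cre(-) kidneys and 57.4, 61.02 and 104.8 CPM in KI kidneys. The controls differed little from each other (SD 1.09 CPM), and the KI libraries fell on both sides of them. The difference was 0.04 ± 0.16 (adjusted p = 0.84) with all libraries and -0.29 ± 0.09 (adjusted p = 0.0167) without KI replicate 3, so KI replicate 3 decides its sign. It had 71.2, 78.7, 60.97 and 67.8 CPM in KI/Hif1α KO, 60.8, 61.5 and 57.7 CPM in KI/Hif2α KO and 56.7, 68.1 and 65.3 CPM in DKO kidneys. The DKO libraries lay below all Cre(-) libraries but the difference of -0.19 ± 0.16 did not pass (adjusted p = 0.312) and was 0.39 on the log2(TPM + 1) scale. Of its partners and antagonists, Myc rose by 1.79 and Mnt by 1.23 between Cre(-) and KI kidneys, Mxd1 fell by 0.54, and Max differed by 0.22 (adjusted p = 0.116).

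Kdm3a (chr6:71588972-71632990, minus strand), a demethylase of histone H3 lysine 9, had 41.2, 46.0, 42.0 and 41.8 CPM in Cre(-) kidneys and 46.9, 51.4 and 66.4 CPM in KI kidneys. The KI libraries were all above the Cre(-) libraries, with a gap of less than 1 CPM between the nearest, and Kdm3a rose by 0.36 ± 0.10 (adjusted p = 0.00402), or by 0.20 ± 0.07 (adjusted p = 0.031) without KI replicate 3. It had 47.4, 53.1, 48.5 and 54.1 CPM in KI/Hif1α KO, 46.2, 49.2 and 48.1 CPM in KI/Hif2α KO and 46.6, 42.7 and 45.5 CPM in DKO kidneys. Only the DKO libraries lay below all KI libraries, by -0.29 ± 0.10, which did not pass (adjusted p = 0.0746). Its paralogs Kdm3b and Jmjd1c did not pass between KI and Cre(-) kidneys, at 0.09 and -0.20.

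Ddit4 (chr10:59949669-59951834, minus strand) encodes REDD1, an inhibitor of mTORC1 signalling that responds to hypoxia, energy stress and glucocorticoids. Its level was 14.6, 12.0, 20.3 and 18.7 CPM in Cre(-) and 28.6, 32.8 and 74.2 CPM in KI kidneys. All KI libraries were above all Cre(-) libraries, and Ddit4 rose by 1.47 ± 0.28 (adjusted p = 0.000341), or by 0.91 ± 0.21 (adjusted p = 0.00196) without KI replicate 3. As with Bhlhe40, the controls with HIF1a flox alleles were the lowest, and the value was 1.77 against these and 1.22 against the others. It had 76.9, 55.0, 65.4 and 64.6 CPM in KI/Hif1α KO, 27.2, 39.9 and 40.4 CPM in KI/Hif2α KO and 35.1, 33.2 and 46.8 CPM in DKO kidneys. Ddit4, like Ccng2, had its highest group mean in KI/Hif1α KO kidneys, where all libraries exceeded all KI/Hif2α KO and DKO libraries and KI replicates 1 and 2, and 1 of the 4 exceeded KI replicate 3. The difference from KI was 0.54 ± 0.28 (adjusted p = 0.275) with all libraries and 1.09 ± 0.22 (adjusted p = 0.0233) without KI replicate 3. KI/Hif1α KO exceeded KI/Hif2α KO by 0.87 ± 0.28 (unadjusted p = 0.00711, adjusted p = 0.158), and by the same 0.87 with an adjusted p of 0.0366 when the fit left out KI replicate 3, with the libraries of both groups as before. DKO kidneys remained above Cre(-) by 1.23 ± 0.28 (adjusted p = 0.00158).

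Between KI/Hif1α KO and KI/Hif2α KO kidneys 0 of the 10 members passed in edgeR, where 0.429% of all genes passed, with 3 at an unadjusted p under 0.05 (Ankrd37, Ddit4 and Ccng2) compared with 14.9% of all genes, and 0 in DESeq2. Without KI replicate 3 the 1 member called was Ddit4 (1.57% of all genes). All libraries of KI/Hif1α KO were above those of KI/Hif2α KO for P4ha2, Ddit4 and Ccng2, 3 members (8.31% of all genes), and below for 1, Ankrd37 (6.75%). Of 10 genes of the integrated stress and glucocorticoid responses, 2 passed here, both higher in KI/Hif1α KO, namely Tsc22d3 and Fkbp5, which glucocorticoids induce. Tsc22d3 had 189.0 to 253.4 CPM in KI/Hif1α KO and 55.2 to 87.5 CPM in KI/Hif2α KO kidneys, a difference of 1.66 ± 0.34 (adjusted p = 0.0437). Fkbp5 had 258.9 to 377.5 and 54.1 to 90.3 CPM in the same groups, a difference of 2.12 ± 0.43 (adjusted p = 0.0437). Among KI libraries replicates 1, 2 and 3 had 63.1, 119.3 and 211.1 CPM of Tsc22d3 and 62.7, 210.2 and 235.8 CPM of Fkbp5, so KI replicate 3 was again the highest, and in DKO kidneys they had 55.8 to 93.5 and 48.1 to 104.1 CPM. The clock gene Cry1 was also higher in KI/Hif1α KO than in KI/Hif2α KO kidneys, by 1.22 (adjusted p = 0.0148), as 1 of 15 clock genes that passed. Unlike Ddit4, neither Tsc22d3 (0.50, adjusted p = 0.187) nor Fkbp5 (0.08, adjusted p = 0.882) passed between KI and Cre(-) kidneys, and Fkbp5 was lower in DKO than in Cre(-) kidneys, by -1.20 (adjusted p = 0.0213). The genes most like Ddit4 in log2 CPM over the 17 libraries were Fos (r = 0.947), Fosl2 (r = 0.941) and Nfkbia (r = 0.941), immediate-early and early response genes, given as a description.

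**Figure D5:**
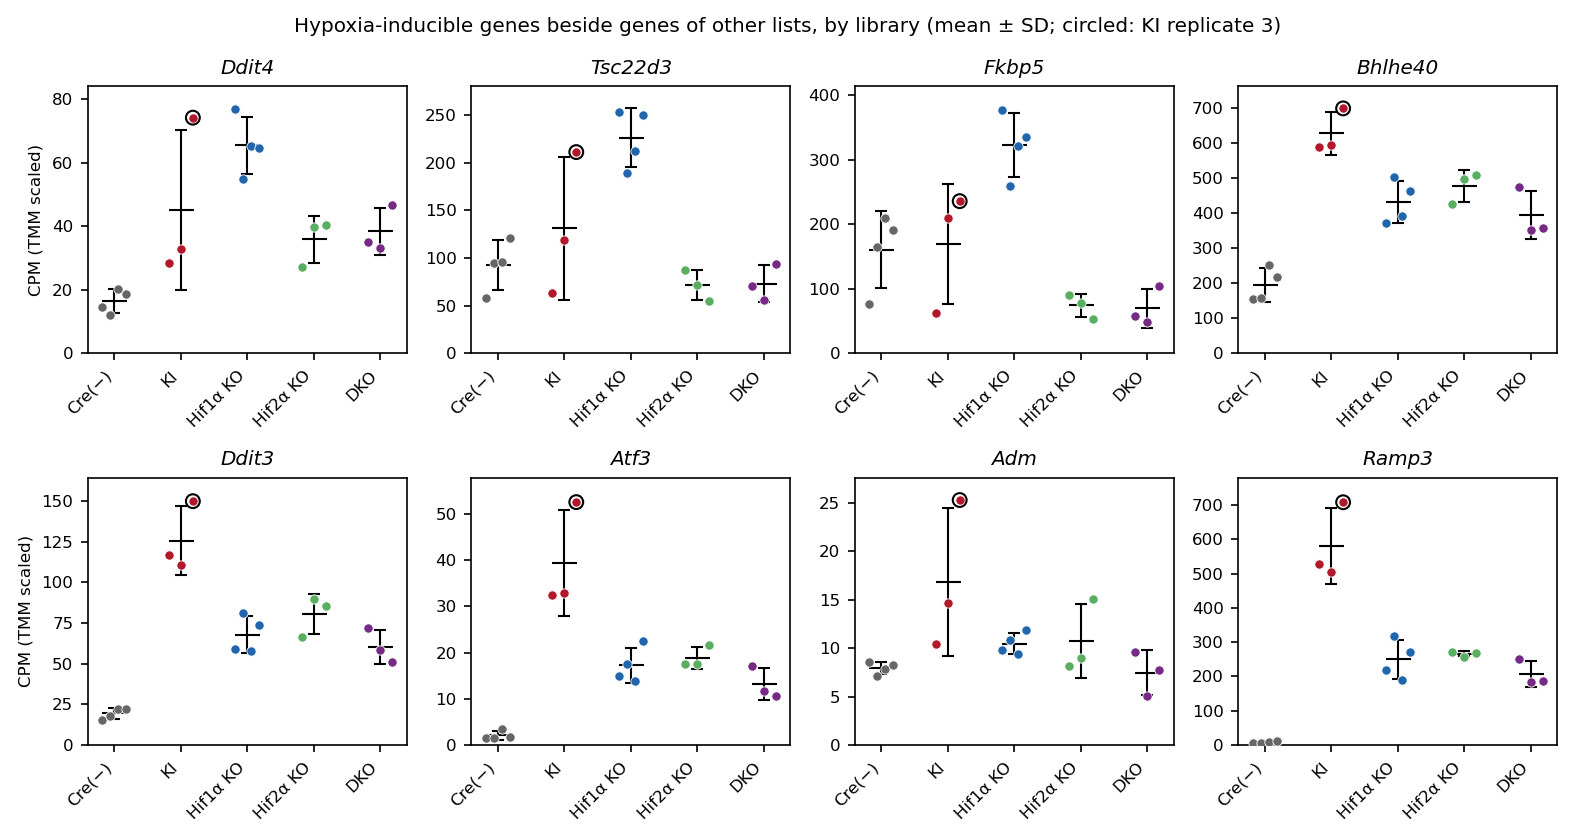
CPM by library and group of Ddit4, Bhlhe40 and Adm beside 5 further genes (Tsc22d3, Fkbp5, Ddit3, Atf3 and Ramp3), with points for libraries and bars for group means ± SD. The group means of Ddit4, Tsc22d3 and Fkbp5 are highest in KI/Hif1α KO kidneys, and all knockout libraries of Bhlhe40, Ddit3 and Atf3 lie between Cre(-) and KI.

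Ndrg1 (chr15:66929318-66969640, minus strand), a cytoplasmic protein of differentiation and stress, went the opposite way from the other called members. Its level was 3077, 2307, 2556 and 2428 CPM in Cre(-) and 989.0, 803.9 and 1941 CPM in KI kidneys. All KI libraries were below all Cre(-) libraries, and Ndrg1 fell by 1.06 on the log2 scale (SE 0.28, adjusted p = 0.00379). Without KI replicate 3, the KI library nearest the controls, the difference was -1.53 ± 0.25 (adjusted p = 0.000104). It had 1606, 1273, 1042 and 1489 CPM in KI/Hif1α KO, 1415, 833.0 and 839.6 CPM in KI/Hif2α KO and 868.2, 677.4 and 1004 CPM in DKO kidneys. All knockout libraries lay below all Cre(-) libraries and overlapped KI, and the differences from KI were 0.12 (adjusted p = 0.839), -0.27 (adjusted p = 0.643) and -0.55 ± 0.29 (adjusted p = 0.223) in KI/Hif1α KO, KI/Hif2α KO and DKO kidneys. In the fit that left out KI replicate 3, they were 0.59 (adjusted p = 0.182), 0.20 (adjusted p = 0.795) and -0.08 (adjusted p = 0.893). DKO kidneys were below Cre(-) by -1.61 ± 0.28 (adjusted p = 0.000173). Of its paralogs, Ndrg2 fell by 0.89 and Ndrg3 by 0.44 between Cre(-) and KI kidneys, and Ndrg4 rose by 2.85. The proximal tubule markers given above moved in the same direction as Ndrg1 between Cre(-) and KI kidneys, in 7 of 7 cases, and their part in its fall was not tested. Its reads overlap those of the opposite-strand genes Gm2895 and Gm17035.

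Ccng2 (chr5:93267257-93276231, plus strand), an unconventional cyclin that restrains the cell cycle, had 28.3, 32.9, 27.9 and 25.4 CPM in Cre(-) kidneys and 23.9, 25.8 and 41.3 CPM in KI kidneys. The KI libraries fell on both sides of the controls, with a difference of 0.08 ± 0.15 (adjusted p = 0.658) that was -0.20 (adjusted p = 0.121) without KI replicate 3. It had 35.5, 38.9, 33.3 and 35.8 CPM in KI/Hif1α KO, 29.8, 27.6 and 26.5 CPM in KI/Hif2α KO and 29.2, 35.8 and 33.1 CPM in DKO kidneys. All KI/Hif1α KO libraries were above all KI/Hif2α KO libraries, by 0.36 ± 0.15 (adjusted p = 0.272), and above KI replicates 1 and 2. Relative to KI, Ccng2 differed by 0.24 ± 0.15 (adjusted p = 0.37) with all libraries and was higher by 0.53 ± 0.11 (adjusted p = 0.0254) without KI replicate 3. Ccng1, its paralog, differed by 0.15 (adjusted p = 0.113) between KI and Cre(-) kidneys.

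After loss of both factors, 4 of the 10 members differed from Cre(-) kidneys, where 58.3% of all genes did so. Ddit4 and Bhlhe40 were higher (30.4% of all genes), and Ndrg1 and P4ha1 were lower (27.9%). Of these, P4ha1 had not passed between KI and Cre(-) kidneys, at 0.23 (adjusted p = 0.159, edgeR). The libraries did not overlap for 2 higher members, the same Ddit4 and Bhlhe40 (30.9% of all genes), and 3 lower members, Ndrg1, P4ha1 and Mxi1 (28.5%). On the log2(TPM + 0.1) scale, where the median of all genes shifted by 0.56, 7 passed, 6 higher and 1 lower, and the share of all genes is not given for this scale. On the TMM scale the other 6 had differences between -0.19 and 0.22, none of which passed. Among these, the intervals of Ankrd37 (-0.95 to 1.03) and Adm (-0.69 to 0.52) were wide, and those of Kdm3a (-0.13 to 0.28) and Ccng2 (-0.13 to 0.51) were narrower.

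The HIF pathway itself and other hypoxia-inducible genes gave the following counts. Hif1a and Epas1, which encodes HIF2α, differed between KI/Hif1α KO and KI kidneys by -0.21 (adjusted p = 0.372) and -0.10 (adjusted p = 0.566), and between KI/Hif2α KO and KI kidneys by -0.04 (adjusted p = 0.901) and -0.33 (adjusted p = 0.0788), summed over all exons of each gene, so that reads outside the deleted part are counted. Neither target gene passed the test in the group labelled as its knockout. Of 10 genes of the pathway, Hif1a, Arnt2 and Vhl rose and Egln1 and Epas1 fell between Cre(-) and KI kidneys, and Vhl was the 1 gene lower than KI in KI/Hif1α KO (-0.49, adjusted p = 0.0288) and in DKO kidneys (-0.63, adjusted p = 0.00696), of which the second call held without KI replicate 3 (-0.54, adjusted p = 0.0355) and the first did not (-0.39, adjusted p = 0.106). Of 23 further hypoxia-inducible genes outside glycolysis, 12 were higher and 7 lower in KI than in Cre(-) kidneys, with a median of 0.37. Relative to KI, 5 were lower in KI/Hif1α KO (Bnip3l, Mif, Narf, Stc2 and Zfp395), 0 passed in KI/Hif2α KO and 8 were lower and 1 higher in DKO kidneys, with medians of -0.21, -0.19 and -0.26. Without KI replicate 3 these counts were 2 lower (Narf and Stc2), 0, and 3 lower (Bnip3l, Mif and Narf), with medians of -0.06, -0.05 and -0.12. Narf, the gene most like P4ha1 in log2 CPM over the 17 libraries (r = 0.881), was lower than in KI by -0.81 (adjusted p = 0.00275) in KI/Hif1α KO and by -0.85 (adjusted p = 0.00166) in DKO kidneys, and by -0.63 (adjusted p = 0.00954) and -0.68 (adjusted p = 0.00686) without KI replicate 3. Of 16 glycolytic hypoxia-inducible genes, 5 were higher and 5 lower in KI than in Cre(-) kidneys, and relative to KI 1 was higher and 1 lower in KI/Hif1α KO and 1 was higher and 6 lower in DKO kidneys. With KI replicate 3 left out, 5 were higher and 9 lower than in Cre(-) kidneys, 0 passed in KI/Hif1α KO and 1 was lower in DKO kidneys. Aldoa, of that list, was the gene most like Ankrd37 (r = 0.856).

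The 10 members did not all move in the same direction across groups. Over the 17 libraries their 45 pairs had a median Pearson r of 0.38 in log2 CPM, from -0.67 to 0.83, with 35 pairs positive. After subtraction of the group means, which leaves the variation between mice of a group, the median was 0.47 and 43 pairs were positive. These values share library, depth and scaling and include KI replicate 3, and are given as a description. No value for pairs of all genes stands beside them. In those deviations Mxi1 was most like Vegfa (r = 0.970) and Kdm3a most like Klhl21 (r = 0.959).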

How the data were processed

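Stranded mRNA libraries (TruSeq) of 17 mouse kidneys were read from 1 end, for 75 nt. The submitters' processing notes name Trim Galore 0.6.6 with cutadapt 2.5 and STAR 2.7.9a, and the study's methods name RSEM for quantification and a human assembly for alignment, whereas the deposited tables list mouse transcripts. The authors deposited expected counts per transcript, which are estimates without normalization across libraries. TPM per transcript, adjusted by the authors for transcript length and library total, were deposited too. Of 119353 transcripts, 116770 (97.8%) were matched to GENCODE M21 (GRCm38), holding 99.04% to 99.24% of the counts of each library, and the rest were left out.

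Both measures were summed to genes, and the counts were rounded. Groups and replicate numbers were taken from titles, and nothing says that replicates were pooled. The main test was edgeR 4.0.16 (R 4.3.3), a quasi-likelihood fit over the 17 libraries with 5 group coefficients, TMM factors and a minimum count of 10. P-values were adjusted by Benjamini-Hochberg over 17011 genes with a threshold of 0.05. Errors of log2 fold changes are SE and intervals are 95%. Transcript shares were compared by two-sided exact permutation tests. Likeness is Pearson's r of log2 CPM (prior count 2) over genes with a mean TPM of at least 1. Python 3.11.15 with pandas 2.3.3, numpy 2.4.6 and matplotlib 3.10.9 made the tables and plots.

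The 10 genes and all further gene lists were chosen with earlier results of these data known. The genes named are the 10 members, genes of the further lists and of the marker lists where they help to read a count, and genes most like each member, not all of which are reported here. Other choices tried were DESeq2 1.42.0, its size factors, no filter, the compared groups alone, the replicate number as a block, limma 3.58.1 on log2(TPM + 1) and log2(TPM + 0.1), either pair of Cre(-) mice, a minimum change of 0.58, unadjusted p, and each library left out in turn. On simulated data for KI against Cre(-), with 200 genes changed, edgeR tested 16789 genes and called 157, with 5.73% false calls. It recovered 89% of the 4-fold and 59% of the 2-fold changes. DESeq2 had 16.8% false calls on the same simulated data. The simulation changed far fewer genes than the 60.9% called in the real comparison, so these rates cannot be carried over to it.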

Additional observations from a re-analysis of the deposited data

How the results depend on the processing

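Of 670 values of single genes under other settings, 617 kept their direction and side of the threshold, 18 lost and 17 gained a call, and 18 changed sign. With 1 library left out, 1432 of 1530 were kept, 33 lost and 16 gained a call, and 49 changed sign. In a fit of the compared groups alone the number of members called was 0 between KI/Hif1α KO and KI and 1 between DKO and KI. DESeq2 called 1 between KI/Hif2α KO and KI and 4 for the mean effect of Hif1α loss. Limma on log2(TPM + 1) called 2 between DKO and KI and 7 between DKO and Cre(-), and on log2(TPM + 0.1) it called 2 and 7, and 1 between KI/Hif1α KO and KI and 1 for the mean effect of Hif1α loss, which was also 1 with a minimum change of 0.58. By unadjusted p the counts were 3 between KI/Hif2α KO and KI (19.2% of all genes) and 3 between the single knockouts (14.9%). They were 5 for the mean effect of Hif2α loss (25.6%) and 1 for the deviation from additivity (5.95%). Between KI/Hif1α KO and KI the count was 4, and for the mean effect of Hif1α loss it was 5, without a share of all genes to set beside them. Without KI replicate 3 both counts were 7, compared with 19.2% and 21.2% of all genes. On shares of expected counts 2 transcripts passed. These counts moved for reasons that were not tested. The fit of the compared groups had fewer libraries, and whether this moved its counts was not tested either. Counts given here without a share of all genes show only how the calls depend on the setting.

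Changes of sign occurred near 0 or on the TPM scales. The median of all genes was 0.5634 between DKO and Cre(-) on log2(TPM + 0.1), the only TPM scale on which it was taken. On log2(TPM + 1) and log2(TPM + 0.1), Ccng2 was at 0.0274 and 0.0313 between KI/Hif2α KO and KI and at 0.0203 and 0.0226 for the mean effect of Hif2α loss, and Mxi1 was at 0.0390 and 0.0400 for that of Hif1α loss. Kdm3a was at -0.0255 and -0.0267 between the single knockouts and at -0.0753 and -0.0779 for the deviation from additivity. Between DKO and Cre(-), P4ha1 was at 0.2163 and 0.2216, Adm at 0.3061 and 0.3352 and Mxi1 at 0.3863 and 0.3949. With only the HIF1a flox controls, Ccng2 was at -0.0093 between KI and Cre(-) and Ankrd37 at -0.1519 between DKO and Cre(-).

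With each library left out in turn, the number of members called ranged from 6 to 8 between KI and Cre(-), from 1 to 3 between KI/Hif1α KO and KI, from 0 to 1 between KI/Hif2α KO and KI, from 0 to 5 between DKO and KI, from 0 to 1 between the single knockouts, from 3 to 4 between DKO and Cre(-), and from 0 to 4 for either mean effect, and stayed at 0 for the deviation from additivity. The transcript count ranged from 0 to 1. The genes that changed sign had the following ranges of log2 fold change. Between KI and Cre(-) these were Ccng2 from -0.2029 to 0.2281 and Mxi1 from -0.2871 to 0.1982. Between KI/Hif1α KO and KI these were Ndrg1 from -0.1151 to 0.5934, P4ha2 from -0.2418 to 0.2250, Kdm3a from -0.2130 to 0.0473 and Mxi1 from -0.2513 to 0.2339. Between KI/Hif2α KO and KI these were Ankrd37 from -0.6974 to 0.1986, Ndrg1 from -0.5729 to 0.1992, Ddit4 from -0.5767 to 0.2236, Ccng2 from -0.2606 to 0.1701 and Mxi1 from -0.4665 to 0.0186. Between DKO and KI these were P4ha2 from -0.4378 to 0.0289, Ddit4 from -0.4775 to 0.3230, Ccng2 from -0.0354 to 0.3954 and Mxi1 from -0.3876 to 0.0975. Between KI/Hif1α KO and KI/Hif2α KO this was Adm from -0.1984 to 0.2922. Between DKO and Cre(-) these were Ankrd37 from -0.1840 to 0.4202 and Adm from -0.3041 to 0.1308. For the mean effect of Hif1α loss these were Ndrg1 from -0.1956 to 0.1586, P4ha2 from -0.0569 to 0.1765 and Mxi1 from -0.0862 to 0.1564. For the mean effect of Hif2α loss these were Ankrd37 from -0.4305 to 0.0176 and Ccng2 from -0.1971 to 0.0182. For the deviation from additivity these were Ankrd37 from -0.3621 to 0.5337, P4ha2 from -0.0971 to 0.3697, Kdm3a from -0.1365 to 0.1237, Adm from -0.2538 to 0.4901, Ccng2 from -0.3037 to 0.1271 and Mxi1 from -0.1549 to 0.3302.

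The replicate numbers do not pair the mice: over 31 pairs of libraries with the same number the median correlation of deviations was -0.034, 4 pairs exceeded 0.1, and 3 of 17 libraries were most like a library of their own number. With the replicate block, 1 member passed between KI/Hif1α KO and KI and 1 for the mean effect of Hif1α loss. The main limits are 3 or 4 mice per group, the weight of KI replicate 3, the few counts of Ankrd37, the mixture of cells in whole kidneys, and estimates per transcript that depend on the authors' quantification.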
